A study of Mus musculus with 40 samples.

Results

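The 10 EMT-6 tumors treated with the bifunctional antibody were split into a cytotoxic-high and a cytotoxic-low set, 5 libraries each, of the 40 tumor libraries in the series. The split was chosen by the tumors' own RNA: libraries were ranked by the mean log2(CPM + 1) of Gzmb, Prf1 and Nkg7, where CPM, the usual library-size-scaled count, was corrected with TMM factors for the RNA composition of each library. The 5 highest and the 5 lowest libraries were then compared. The samples carry no label for the sets, so differences between them are given as descriptions with no test, and tests were run only in the 30 libraries that the ranking did not use.

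EMT-6 is a mouse mammary carcinoma line. In every group Balb/C females, 8 to 12 weeks old, carried EMT6 cells in the right mammary pad and were dosed intravenously on days 0, 1 and 2, starting 20 days after inoculation at a mean tumor volume near 400 mm3, and tumors were taken on day 6. The bifunctional group received 492 µg of anti-PDL1/TGFβ trap, an antibody against PD-L1 fused to a domain that captures TGF-β. The other groups, of 10 tumors each, received 400 µg of anti-PD-L1, 492 µg of a trap control made of a mutated anti-PD-L1 with the TGFβ trap, or 400 µg of an inactive anti-PD-L1 isotype control. Each library came from 1 whole tumor piece, so cancer cells, immune cells, stroma and any host tissue at the margin were measured together.

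Cytotoxic T cells and natural killer (NK) cells kill target cells with granules that hold perforin, encoded by Prf1, which opens the target membrane, and granzymes, serine proteases that enter through it. Gzmb encodes granzyme B, a protease that triggers apoptosis, and Nkg7 encodes a membrane protein of these granules. Activated cytotoxic lymphocytes also release interferon-γ, which induces antigen presentation genes, guanylate-binding proteins, CXCL9 and PD-L1 in surrounding cells.

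The 3-gene score was 2.54, 2.36, 2.31, 2.15 and 1.98 in the cytotoxic-high libraries C0483, C0479, C0482, C0487 and C0480, against 1.80, 1.71, 1.70, 1.49 and 1.39 in the cytotoxic-low libraries C0481, C0488, C0486, C0484 and C0485. Values for single libraries below follow this order. The scores ran without a wide gap, and the 2 libraries beside the dividing line were C0480 at 1.98 and C0481 at 1.80. Gzmb was 7.54, 5.84, 4.37, 4.78 and 4.31 CPM in cytotoxic-high tumors, against 3.19, 4.0, 3.36, 2.89 and 2.71 CPM in cytotoxic-low tumors. Gzmb was the only one of the 3 genes with sets that did not overlap. Prf1 was 8.63, 5.93, 8.73, 7.08 and 3.36 CPM in cytotoxic-high tumors, against 4.04, 2.93, 3.80, 2.36 and 2.3 CPM in cytotoxic-low tumors. Nkg7 was 1.39, 1.86, 1.34, 0.890 and 1.63 CPM in cytotoxic-high tumors, against 0.990, 0.793, 0.654, 0.692 and 0.479 CPM in cytotoxic-low tumors. C0480 had a Prf1 level below that of C0481, and C0487 an Nkg7 level below that of C0481, so the line between these libraries rests on the mean of the 3 genes. These are whole-tumor levels, in which fewer cytotoxic cells and less RNA per cell cannot be told apart.

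**Figure D1:**
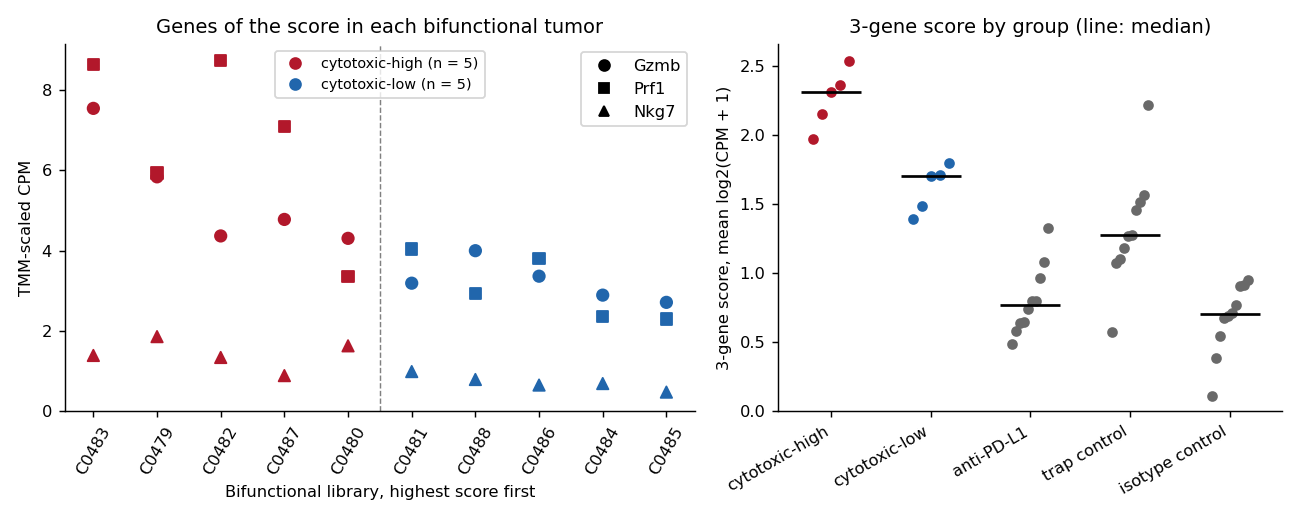
Mean log2(CPM + 1) of Gzmb, Prf1 and Nkg7 in each library, with cytotoxic-high and cytotoxic-low bifunctional tumors and the 3 other treatment groups as separate sets of points. The 10 bifunctional libraries run from 2.54 to 1.39 with no wide gap at the dividing line, and all lie above the isotype control libraries, the highest of which is 0.951.

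The total counts of the 10 libraries were 22793662 to 27658263, and the signal rested on 85 to 271 reads of Gzmb, 72 to 310 of Prf1 and 15 to 58 of Nkg7 in a library. Structural RNA took 14.3% to 18.0% of counts in cytotoxic-high libraries, against 13.3% to 16.6% in cytotoxic-low libraries. In the other groups the score had a median of 0.768 in anti-PD-L1 tumors (0.485 to 1.33), 1.27 in trap control tumors (0.576 to 2.22) and 0.702 in isotype control tumors (0.110 to 0.951). The lowest bifunctional library was thus above every anti-PD-L1 and isotype control library and inside the trap control range. Trap control libraries fell into 6 with 29.7% to 62.3% structural RNA and scores of 0.576 to 1.28, and 4 with 12.9% to 17.4% and scores of 1.46 to 2.22. All isotype control libraries had 34.2% to 62.0% structural RNA.

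Granule genes beyond the 3 of the rule were mostly higher in cytotoxic-high tumors, while general T cell genes differed little. Of 14 other cytotoxic granule and effector genes with a mean of at least 1 CPM, 13 had the higher mean in cytotoxic-high tumors, and the median difference was 0.50 on the log2(CPM + 1) scale, against a median near 0 over all 13456 genes compared. The score of this list averaged 2.91 ± 0.322 in cytotoxic-high tumors and 2.48 ± 0.247 in cytotoxic-low tumors (SD, n = 5 each), with overlapping sets. T cell genes were 0.11 higher over 10 genes, or 0.04 without the 2 muscle-rich libraries described below. On the TPM scale the median of all genes moved by -0.19 between the sets, and the cytotoxic, T cell and NK cell lists differed by 0.22, -0.07 and 0.005. Relative to that shift the 3 lists were 0.41, 0.12 and 0.19 higher in cytotoxic-high tumors. Cd3e, the signalling chain of the T cell receptor complex, was 0.278, 0.866, 0.137, 0.0988 and 0.555 CPM in cytotoxic-high tumors, against 0.357, 0.345, 0.436, 0.503 and 0.192 CPM in cytotoxic-low tumors. The highest and the lowest Cd3e levels of the 10 tumors both lay in the cytotoxic-high set, but all were below 1 CPM and rested on few reads. Cd8a, which marks cytotoxic T cells, averaged 0.795 ± 0.283 CPM in cytotoxic-high tumors and 0.721 ± 0.353 CPM in cytotoxic-low tumors (SD, n = 5 each). With means below 1 CPM, Cd3e and Cd8a were not among the 10 T cell genes above. NK cell genes were 0.18 higher over 6 genes by CPM, and 0.005 higher in TPM. Ncr1, the NK cell receptor NKp46, was 2.45, 2.05, 1.17, 2.01 and 2.58 CPM in cytotoxic-high tumors, against 2.14, 0.862, 1.65, 1.35 and 1.15 CPM in cytotoxic-low tumors. Il2rb, the interleukin-2 receptor chain shared by NK cells and activated T cells, was 7.18, 6.74, 5.29, 5.44 and 8.22 CPM in cytotoxic-high tumors, against 5.44, 4.52, 4.67, 4.81 and 4.47 CPM in cytotoxic-low tumors, with 1 cytotoxic-low library inside the cytotoxic-high range. Eomes, a transcription factor of NK and effector T cells, averaged 2.12 ± 0.454 CPM in cytotoxic-high tumors and 1.39 ± 0.452 CPM in cytotoxic-low tumors (SD, n = 5 each). None of the 36 gene-list scores computed separated the sets.

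**Figure D2:**
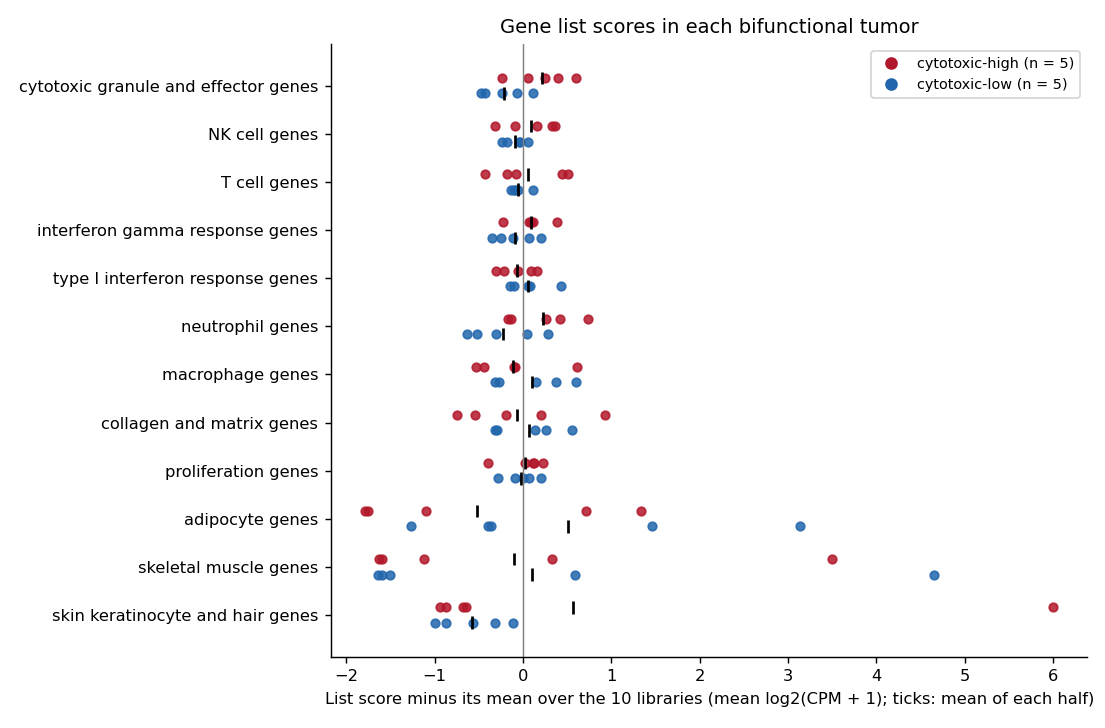
Scores of selected gene lists (mean log2(CPM + 1)) in the 10 bifunctional libraries, each minus its mean over the 10. In the row of each list the cytotoxic-high libraries lie above the cytotoxic-low libraries. Before that mean is taken off, cytotoxic genes other than Gzmb, Prf1 and Nkg7 average 2.91 and 2.48 in cytotoxic-high and cytotoxic-low tumors. Every list plotted has overlapping sets.

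Of the other granzymes, Gzmc, Gzmd, Gzmf and Gzmg split the cytotoxic-high tumors into 2 patterns. Mouse granzymes B to G lie in a cluster on chromosome 14 (mm10, minus strand), which holds Gzmb at chr14:56258838-56262260, Gzmc at chr14:56231441-56234656, Gzmf at chr14:56205263-56211417, Gzmg at chr14:56156582-56159579, Gzmd at chr14:56129556-56132608 and Gzme at chr14:56117626-56120625, while Gzma lies on chromosome 13. Gzmf was 10.8, 1.15, 18.1, 12.1 and 2.32 CPM in cytotoxic-high tumors, against 6.32, 5.69, 5.48, 1.86 and 1.37 CPM in cytotoxic-low tumors. Gzmd was 11.4, 2.79, 14.2, 10.9 and 3.20 CPM in cytotoxic-high tumors, against 6.65, 5.10, 6.11, 2.55 and 2.23 CPM in cytotoxic-low tumors. Gzmg was 10, 1.73, 16.7, 9.65 and 1.76 CPM in cytotoxic-high tumors, against 7.12, 5.07, 5.98, 1.54 and 1.37 CPM in cytotoxic-low tumors. C0483, C0482 and C0487 held more of these transcripts than any cytotoxic-low tumor, while C0479 and C0480 held less than most of them. Gzmc had the same shape, at 19.3, 6.41, 21.3, 16.6 and 6.13 CPM in cytotoxic-high tumors, against 13.1, 7.93, 13.1, 6.51 and 4.92 CPM in cytotoxic-low tumors. Gzma, granzyme A, had another shape, at 4.31, 6.77, 1.75, 2.67 and 6.03 CPM in cytotoxic-high tumors, against 2.61, 1.28, 2.40, 3.27 and 2.74 CPM in cytotoxic-low tumors. C0483 lay above every cytotoxic-low tumor in Gzma as well as in Gzmc, Gzmd, Gzmf and Gzmg. C0479 and C0480, highest in Gzma, also had the highest T cell scores of the 10 libraries, 2.92 and 2.86, where the other 3 cytotoxic-high tumors had 1.98 to 2.34 and cytotoxic-low tumors 2.28 to 2.53.

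Promoters of Gzmb and of the 3 granzymes with the clearest relation to the score in the other treatment groups are shown here. Each is 300 bases, 250 before to 50 after the start in RefSeq (GRCm38.p6, minus strand, printed 5′ to 3′), and capitals mark matches on either strand of TGTGGT, or its reverse complement ACCACA, the core recognised by Runx factors. The windows are chr14:56262285-56262584 for Gzmb, chr14:56132544-56132843 for Gzmd, chr14:56211358-56211657 for Gzmf and chr14:56159530-56159829 for Gzmg.
Gzmb: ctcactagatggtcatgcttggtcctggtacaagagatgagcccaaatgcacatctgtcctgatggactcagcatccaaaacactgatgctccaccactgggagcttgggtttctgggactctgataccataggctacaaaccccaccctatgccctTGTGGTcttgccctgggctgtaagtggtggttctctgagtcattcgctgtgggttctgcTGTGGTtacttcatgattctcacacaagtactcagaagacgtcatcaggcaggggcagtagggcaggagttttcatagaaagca
Gzmd: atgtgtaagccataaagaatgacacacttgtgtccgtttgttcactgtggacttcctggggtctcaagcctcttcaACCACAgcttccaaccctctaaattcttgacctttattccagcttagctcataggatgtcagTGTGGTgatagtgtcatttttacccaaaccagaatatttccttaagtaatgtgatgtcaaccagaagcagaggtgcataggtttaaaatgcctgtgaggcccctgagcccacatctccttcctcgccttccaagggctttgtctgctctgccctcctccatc
Gzmf: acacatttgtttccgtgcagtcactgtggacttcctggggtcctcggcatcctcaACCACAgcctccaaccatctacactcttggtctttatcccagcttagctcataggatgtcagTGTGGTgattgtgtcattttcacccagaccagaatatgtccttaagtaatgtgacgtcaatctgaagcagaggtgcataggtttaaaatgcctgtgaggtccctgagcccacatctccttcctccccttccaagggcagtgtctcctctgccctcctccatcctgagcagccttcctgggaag
Gzmg: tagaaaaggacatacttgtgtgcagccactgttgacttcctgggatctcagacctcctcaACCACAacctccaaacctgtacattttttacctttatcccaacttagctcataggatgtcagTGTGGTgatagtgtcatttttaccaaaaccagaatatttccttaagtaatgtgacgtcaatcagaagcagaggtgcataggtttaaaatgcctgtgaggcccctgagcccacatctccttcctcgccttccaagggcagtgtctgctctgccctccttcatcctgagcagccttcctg
Each of the 6 promoters from Gzmb to Gzmg held 2 matches, and 16.8% of 32851 mouse promoters of this length held at least 1. The share of mouse promoters with 2 matches was not counted. A match is a description of letters, not of binding. The Gzmd promoter shared 90.1% of aligned bases with that of Gzmg, 88.9% with that of Gzmf and 94.0% with that of Gzme. The Gzmb promoter aligned with the others over too few bases for an identity to be given. In their transcripts, 21.5% of 50-base windows of Gzmd, 15.2% of Gzmg and 7.36% of Gzmf recurred in another of the 6 genes, against 0% of Gzmb windows. Reads may thus have been divided among Gzmc, Gzmd, Gzme, Gzmf and Gzmg, whose single levels are uncertain, while Gzmb shares no such window with them.

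**Figure D3:**
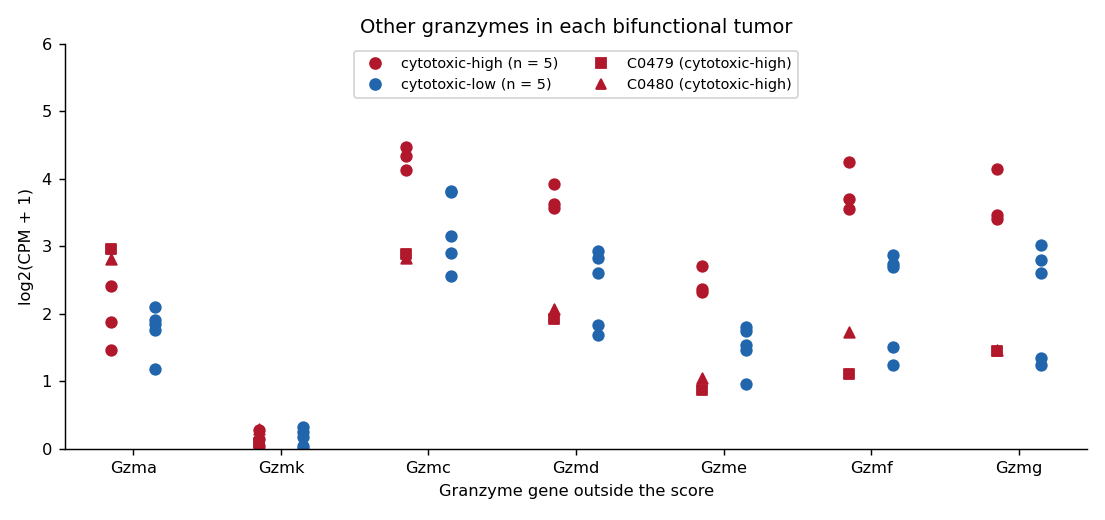
Log2(CPM + 1) of granzyme genes in each of the 10 bifunctional libraries, cytotoxic-high libraries left of cytotoxic-low libraries. The values in brackets are in CPM, before the log is taken. C0483, C0482 and C0487 carry the high Gzmd, Gzmf and Gzmg levels (9.65 to 18.1 CPM), and C0479 and C0480 the high Gzma levels (6.77 and 6.03 CPM).

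Interferon-γ response genes mostly had the higher mean in cytotoxic-high tumors by CPM, though not in TPM, and chemokines did not move as a group. Ccl3, a chemokine of activated lymphocytes and macrophages, was 2.00, 6.80, 7.12, 4.91 and 0.946 CPM in cytotoxic-high tumors, against 3.27, 1.17, 1.46, 1.45 and 1.28 CPM in cytotoxic-low tumors. The cytotoxic-high set held the 3 highest levels and also the lowest. Ccl5, a T cell chemokine, averaged 0.877 ± 0.437 CPM in cytotoxic-high tumors and 0.994 ± 0.247 CPM in cytotoxic-low tumors (SD, n = 5 each), and 3 of 9 T cell attracting chemokines and receptors had the higher mean in cytotoxic-high tumors. Of 19 interferon-γ response genes, 16 had the higher mean in cytotoxic-high tumors, and the list averaged 5.92 ± 0.218 there against 5.74 ± 0.225 in cytotoxic-low tumors (SD, n = 5 each), a difference of 0.17 that was -0.09 in TPM. Relative to the shift of all genes in TPM, the interferon-γ list was 0.10 higher in cytotoxic-high tumors. Gbp4, a guanylate-binding protein, was 94.4, 85.2, 69.2, 50.8 and 80.5 CPM in cytotoxic-high tumors, against 71.0, 62.2, 31.2, 37.1 and 25.9 CPM in cytotoxic-low tumors. Cxcl9, the ligand of CXCR3 on effector T cells, averaged 13.0 ± 5.46 CPM in cytotoxic-high tumors and 8.31 ± 3.93 CPM in cytotoxic-low tumors (SD, n = 5 each). Ifng itself was at most 0.391 CPM in any of the 10 libraries. Type I interferon response genes did not share this direction: 2 of 24 had the higher mean in cytotoxic-high tumors, and the list averaged 4.59 ± 0.197 there against 4.72 ± 0.226 in cytotoxic-low tumors (SD, n = 5 each), a difference of -0.12, or -0.04 without the 2 muscle-rich libraries.

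Among the targets of the antibody, Cd274, which encodes PD-L1, was 10.9, 29.8, 17.6, 14.5 and 11.6 CPM in cytotoxic-high tumors, against 15.5, 10, 7.35, 7.20 and 6.83 CPM in cytotoxic-low tumors. The log2 difference was 0.75, and 0.46 without the 2 muscle-rich libraries. Pdcd1, its receptor PD-1, averaged 0.632 ± 0.195 CPM in cytotoxic-high tumors and 0.648 ± 0.242 CPM in cytotoxic-low tumors (SD, n = 5 each). Tgfb3, a TGF-β ligand, was 42.0, 34.7, 50.8, 58.6 and 81.6 CPM in cytotoxic-high tumors, against 79.2, 77.2, 134, 55.9 and 69.9 CPM in cytotoxic-low tumors. Its log2 difference of -0.62 came with overlap, C0480 lying above 4 of the 5 cytotoxic-low tumors. As lists, these genes differed little between the sets. The PD-1 pathway and B7 ligand score differed by -0.004, with 2 of 7 genes having the higher mean in cytotoxic-high tumors. For TGF-β ligands and receptors the difference was -0.075, with 6 of 15 higher. The 17 TGF-β response genes averaged 5.55 ± 0.275 in cytotoxic-high tumors and 5.51 ± 0.114 in cytotoxic-low tumors (SD, n = 5 each).

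Myeloid genes divided by list. All 19 general macrophage genes had the lower mean in cytotoxic-high tumors, where the list averaged 6.23 ± 0.449, against 6.45 ± 0.399 in cytotoxic-low tumors (SD, n = 5 each), a difference of -0.22 by CPM and -0.45 in TPM. Macrophage polarization genes went the other way, 10 of 11 with the higher mean in cytotoxic-high tumors. That list averaged 4.83 ± 0.409 in cytotoxic-high tumors and 4.47 ± 0.299 in cytotoxic-low tumors (SD, n = 5 each), a difference of 0.36 by CPM, 0.32 without the 2 muscle-rich libraries and 0.09 in TPM. Its member Arg1, arginase 1, averaged 108 ± 49.6 CPM in cytotoxic-high tumors and 63.1 ± 23 CPM in cytotoxic-low tumors (SD, n = 5 each), a log2 difference of 0.66, or 0.34 without that pair. Cx3cr1, the fractalkine receptor of monocytes and macrophages, was 10.7, 20.0, 20.1, 20.7 and 44.3 CPM in cytotoxic-high tumors, against 53.0, 25.6, 73.7, 49.9 and 22.2 CPM in cytotoxic-low tumors. Only C0480 among the cytotoxic-high tumors reached the cytotoxic-low range. Neutrophil genes ran the other way, 6 of 7 with the higher mean in cytotoxic-high tumors, and the list averaged 3.36 ± 0.383 there against 2.92 ± 0.385 in cytotoxic-low tumors (SD, n = 5 each). S100a9, a calcium-binding protein abundant in neutrophils, was 15.5, 41.9, 41.4, 19.5 and 6.75 CPM in cytotoxic-high tumors, against 9.98, 4.48, 6.35, 9.94 and 7.28 CPM in cytotoxic-low tumors. Il1b, the inflammatory cytokine interleukin-1β, was 15.4, 63.1, 59.6, 29.5 and 16.7 CPM in cytotoxic-high tumors, against 17.0, 11.5, 11.3, 14.2 and 10.8 CPM in cytotoxic-low tumors. Both genes were highest in C0479 and C0482. Hypoxia and glycolysis genes had the higher mean in cytotoxic-high tumors for 19 of 20 members, with a list score of 7.15 ± 0.371 there against 6.88 ± 0.336 in cytotoxic-low tumors (SD, n = 5 each). The hypoxia difference was 0.28 by CPM, 0.13 without the 2 muscle-rich libraries, and 0.01 in TPM, which is 0.20 relative to the shift of all genes. Slc2a1, the glucose transporter GLUT1, averaged 349 ± 138 CPM in cytotoxic-high tumors and 221 ± 80.2 CPM in cytotoxic-low tumors (SD, n = 5 each), a log2 difference of 0.66, or 0.43 without that pair.

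Few single genes separated the sets. Of 13456 genes with a mean of at least 1 CPM, 26 (0.193%) were higher in every cytotoxic-high library than in any cytotoxic-low library, and 20 (0.149%) were lower in every one. The ranking used these same libraries, so nothing is read from those shares, and none of the genes belonged to a list. Scin, which encodes the actin-severing protein scinderin, had the largest difference, at 18.8, 18.4, 11.4, 17.6 and 12.0 CPM in cytotoxic-high tumors, against 6.74, 5.76, 3.21, 5.13 and 6.45 CPM in cytotoxic-low tumors. Upp1, uridine phosphorylase, was 40.4, 27.5, 38.1, 31.4 and 20.6 CPM in cytotoxic-high tumors, against 19.6, 15.5, 9.97, 8.99 and 14.3 CPM in cytotoxic-low tumors. Itga2, the α chain of a collagen-binding integrin, was 11.3, 13.2, 8.59, 14.6 and 10.7 CPM in cytotoxic-high tumors, against 6.52, 6.45, 6.45, 6.92 and 6.57 CPM in cytotoxic-low tumors. The Itga2 levels of the cytotoxic-low tumors lay within a narrow band that no cytotoxic-high tumor reached. Il24, an interleukin-10 family cytokine, averaged 1.72 ± 1.89 CPM in cytotoxic-high tumors and 0.305 ± 0.152 CPM in cytotoxic-low tumors (SD, n = 5 each), with 5.09 CPM in C0483.

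In the other direction Clu, which encodes the secreted chaperone clusterin, was 38.4, 36.8, 43.0, 35.3 and 37.4 CPM in cytotoxic-high tumors, against 59.8, 59.6, 94.5, 124 and 74.3 CPM in cytotoxic-low tumors. Wnt5b, a Wnt ligand, was 1.06, 1.19, 0.791, 0.725 and 1.14 CPM in cytotoxic-high tumors, against 1.37, 1.69, 2.80, 4.97 and 2.36 CPM in cytotoxic-low tumors. Nfib, a transcription factor, differed little but evenly, at 143 to 152 CPM in cytotoxic-high tumors and 162 to 181 CPM in cytotoxic-low tumors. The genes whose levels followed the score most closely over the 10 libraries were Ccnq (Pearson's r = 0.924), Upp1 (0.903) and Serpinb9b (0.887), a serpin gene related to the mouse inhibitors of granzyme B. These values are descriptions, computed on the libraries that set the score. Serpinb9b was 10.4, 7.38, 8.70, 7.71 and 5.12 CPM in cytotoxic-high tumors, against 3.38, 5.72, 3.15, 3.87 and 3.61 CPM in cytotoxic-low tumors.

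Muscle and skin did not follow the line between the sets, with 1 muscle-rich library on each side, while fat and mammary gland genes were lower on average in cytotoxic-high tumors. The skeletal muscle score was 1.04, 5.65, 0.525, 0.565 and 2.48 in cytotoxic-high tumors, against 2.75, 0.561, 0.515, 6.81 and 0.656 in cytotoxic-low tumors. Acta1, skeletal muscle actin, reached 435 CPM in C0479 and 883 CPM in C0484. The skin score was 0.875, 7.52, 0.647, 0.580 and 0.842 in cytotoxic-high tumors, against 0.528, 0.958, 0.646, 1.41 and 1.2 in cytotoxic-low tumors. C0479 was the only skin-rich library, with 384 CPM of the keratinocyte keratin gene Krt5, where the other 9 had at most 13.3 CPM. Without C0479 the skin list was 0.21 lower in cytotoxic-high tumors, and with it 1.15 higher. Without C0479 and C0484 the cytotoxic list was 0.42 higher in cytotoxic-high tumors, against 0.43 with them, so by CPM that difference was about as large without the muscle-rich pair; in TPM, with all 10 libraries, it was 0.22. Adipocyte genes differed in one direction, 0 of 13 with the higher mean in cytotoxic-high tumors. Their score was 4.21, 4.83, 1.71, 1.74 and 2.39 in cytotoxic-high tumors, against 2.22, 3.13, 3.10, 6.63 and 4.96 in cytotoxic-low tumors, and the difference was -1.03, or -0.84 without the 2 muscle-rich libraries. Adipoq, the fat hormone adiponectin, was 13.5, 14.6, 0.825, 0.692 and 1.47 CPM in cytotoxic-high tumors, against 1.07, 5.48, 6.57, 84.4 and 26.4 CPM in cytotoxic-low tumors. Mammary epithelial genes, which a mammary pad can contribute, averaged 2.72 ± 0.588 in cytotoxic-high tumors and 3.12 ± 0.983 in cytotoxic-low tumors (SD, n = 5 each), a difference of -0.40, or -0.19 without the 2 muscle-rich libraries. The part of fat and gland in the other differences was not tested.

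**Figure D4:**
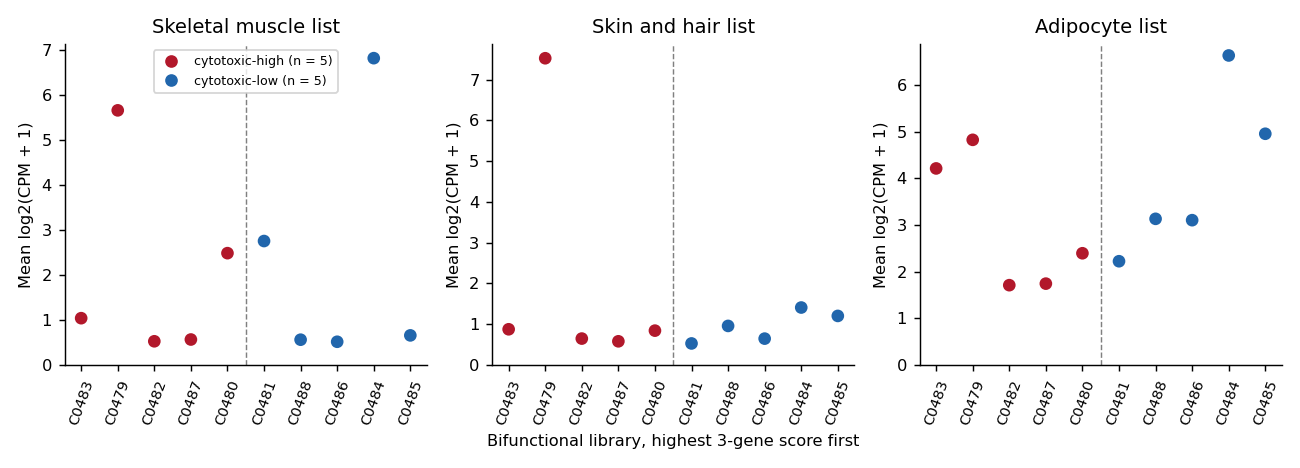
Scores of skeletal muscle, skin and adipocyte genes, as mean log2(CPM + 1), in the 10 bifunctional libraries, cytotoxic-high left of cytotoxic-low. C0479 (muscle 5.65, skin 7.52) and C0484 (muscle 6.81, skin 1.41) are the muscle-rich libraries, 1 in each set.

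The relation of each gene to the 3-gene score was then tested in the libraries that the ranking had not used, with edgeR's quasi-likelihood test and Benjamini-Hochberg adjustment over all genes. A slope is the log2 change per unit of score. Over the 30 other libraries, with a level for each treatment group and a further one for the 6 trap control libraries with more structural RNA, 3 of 15930 genes rose (0.0188%) and 1 fell (0.00628%), the rule's 3 genes left out. The 3 that rose were Gzmd (slope 2.79, SE 0.449, adjusted p = 0.00323), Gzmg (3.53, SE 0.567, adjusted p = 0.00323) and Gzmf (3.07, SE 0.515, adjusted p = 0.0053). The gene that fell was G6pdx, glucose-6-phosphate dehydrogenase (slope -0.62, SE 0.114, adjusted p = 0.0183), which averaged 84.6 ± 8.73 CPM in cytotoxic-high tumors and 86.0 ± 12.9 CPM in cytotoxic-low tumors (SD, n = 5 each). The G6pdx call was lost without isotype control replicate 8 (adjusted p = 0.281), trap control replicate 2 (0.122) or anti-PD-L1 replicate 1 (0.0539) or 7 (0.173), and with a score without Prf1 (0.145) or without Nkg7 (0.105). Leaving out any 1 treatment group also lost the G6pdx call by edgeR. Its adjusted p was 0.342 without the isotype control group, 0.106 without the trap control group and 0.268 without the anti-PD-L1 group. Gzmc (slope 1.99, adjusted p = 0.148) and Gzme (2.17, adjusted p = 0.276) did not pass. Gzmd, Gzmf and Gzmg were thus high in 3 of the 5 cytotoxic-high tumors and low in the other 2. That shape was not particular to them, as Gzmc and Gzme, which did not pass, had it too. Gzme was 4.17, 0.83, 5.53, 3.99 and 1.08 CPM in cytotoxic-high tumors, against 2.34, 1.9, 2.49, 0.94 and 1.76 CPM in cytotoxic-low tumors. The 3 granzyme calls were lost without 1 anti-PD-L1 library, replicate 7 (C0475; adjusted p of 0.169 for Gzmd, 0.173 for Gzmf and 0.169 for Gzmg), with slopes of 2.49, 2.75 and 3.15. They were also lost with a score without Prf1 (adjusted p of 0.209, 0.209 and 0.216 for Gzmd, Gzmf and Gzmg), without the isotype control group (0.303, 0.262 and 0.239) and without the anti-PD-L1 group (0.126, 0.268 and 0.636). Within anti-PD-L1 tumors alone the slopes were 3.63, 3.74 and 4.32, and within isotype control tumors 3.45, 3.7 and 4.9, none past the adjusted threshold. In the trap control libraries alone they were 1.59, 2.06 and 2.11 (adjusted p of 0.77 for each). Within the 16 libraries with more structural RNA the slopes of Gzmd, Gzmf and Gzmg were 2.72, 3.15 and 3.78, and within the 14 with less they were 2.88, 3.05 and 3.38, again with none past the adjusted threshold.

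**Figure D5:**
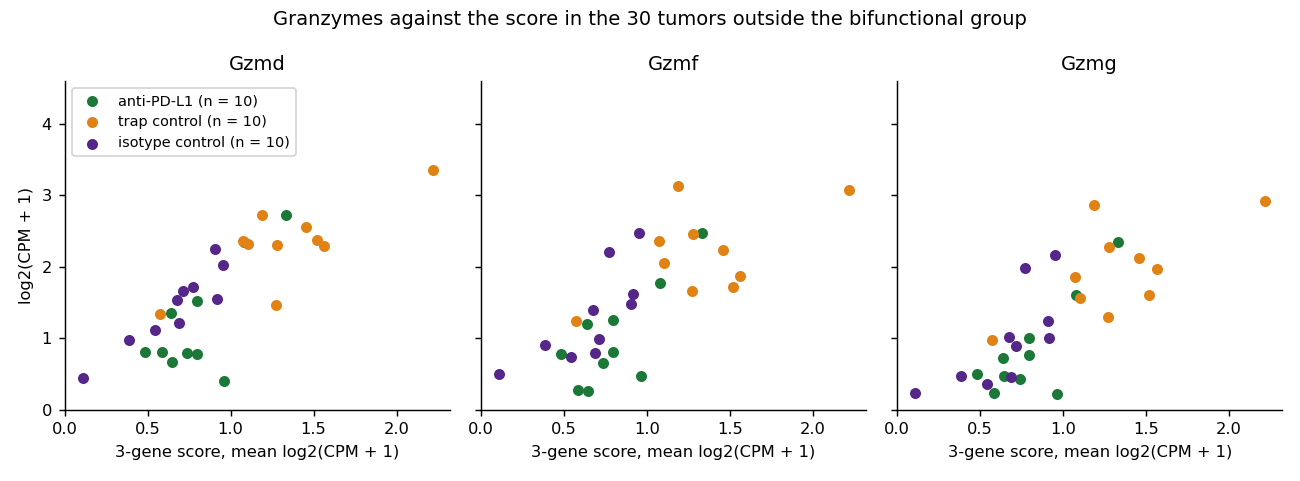
Log2(CPM + 1) of granzyme genes against the 3-gene score in the 30 libraries outside the bifunctional group, with the anti-PD-L1, trap control and isotype control libraries marked. Gzmd, Gzmf and Gzmg have slopes of 2.79, 3.07 and 3.53 in the fit over all 30 libraries.

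Of 18 cytotoxic genes tested in the 30 libraries, the same 3 rose and 17 had positive slopes, with a median of 0.52, against a median near 0 over all genes. Of all 15930 genes, 3.5% rose at an unadjusted p under 0.05. Of 21 T cell genes, 18 had positive slopes and none passed by edgeR (7 rose at an unadjusted p under 0.05, and DESeq2 called 1). Of 13 NK cell genes, all had positive slopes and none passed by edgeR (4 rose at an unadjusted p under 0.05, and DESeq2 called 0). Of 20 interferon-γ response genes, 17 had positive slopes and none passed by edgeR (7 rose at an unadjusted p under 0.05, and DESeq2 called 0). Fitted by group, interferon-γ slopes were positive in 16 of 20 cases in anti-PD-L1 tumors and in 3 of 19 in isotype control tumors. At an unadjusted p under 0.05, 1 rose and 1 fell in anti-PD-L1 tumors, and 0 did either in isotype control tumors. Over the 30 libraries skeletal muscle genes also had positive slopes in 22 of 23 cases, 19 of them at an unadjusted p under 0.05. None was past the adjusted threshold by edgeR, and 1 was by DESeq2. Hypoxia and glycolysis genes had positive slopes in 3 of 20 cases, and type I interferon response genes in 21 of 24. Both went against their direction between the bifunctional sets. Macrophage polarization genes had them in 6 of 12 cases and neutrophil genes in 8 of 9. None passed by edgeR. Polarization and neutrophil genes had positive slopes in 1 of 13 and 1 of 9 cases within anti-PD-L1 tumors. Within isotype control tumors they had them in 8 of 11 and 6 of 7. With the muscle and skin scores as covariates the slopes of Gzmd, Gzmf and Gzmg were 2.88, 3.18 and 3.69, and all 3 passed, while G6pdx did not (slope -0.61, adjusted p = 0.103 by edgeR).

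Within the 10 anti-PD-L1 libraries, 3 of 15192 genes rose with the score (0.0197%) and 0.0% fell, with 785 falling at an unadjusted p under 0.05 and 40 by DESeq2. The 3 were Acta1 (slope 10.44, SE 1.26, adjusted p = 0.0204), the fast myosin gene Myh1 (9.96, adjusted p = 0.0204) and the muscle calcium pump gene Atp2a1 (10.7, adjusted p = 0.0492). All are skeletal muscle genes, and C0475 had both the highest cytotoxic score of the group, 1.33, and the highest muscle score, 3.15. Without C0475 the Acta1 slope was 0.94 (adjusted p = 0.822) and no gene passed. No gene passed either without anti-PD-L1 replicate 1, 6, 8 or 9, and 6 passed without replicate 3. In the 10 isotype control libraries 0.0% of 15028 genes rose and 0.0% fell by edgeR, with 860 genes at an unadjusted p under 0.05 and 20 by DESeq2. Adipocyte genes had negative slopes in 13 of 13 cases in anti-PD-L1 tumors, 9 at an unadjusted p under 0.05, and positive slopes in 10 of 12 in isotype control tumors, 4 at an unadjusted p under 0.05; this difference between the groups was not tested.

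The 46 genes that separated the bifunctional sets were looked up in the fit over the 30 other libraries. Of the 26 higher in cytotoxic-high tumors, 20 had positive slopes with a median of 0.13, and 7 rose at an unadjusted p under 0.05, against 3.5% of all genes. None passed by edgeR or by DESeq2, and the smallest adjusted p was that of Btbd11 (slope 0.67, adjusted p = 0.258 by edgeR). Of the 20 lower in cytotoxic-high tumors, 13 had negative slopes with a median of -0.12 over the 20, and 2 fell at an unadjusted p under 0.05, against 4.54% of all genes. These were Wnt5b (slope -1.36, adjusted p = 0.292 by edgeR) and Clu (slope -0.64). Scin had a slope of 0.87 (adjusted p = 0.611 by edgeR) and Upp1 one of 0.32 (adjusted p = 0.788 by edgeR), so neither passed outside the tumors that had picked it out.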

How the data were processed

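Total RNA of 40 snap-frozen tumors, 1 library per mouse, was sequenced after removal of ribosomal RNA. RSEM (1.2.31), Bowtie2 (2.3.1) and the mm10 build were used per the submitters' processing notes, which give no roles; the annotation release and the use of strand are not given in the sources used here. The authors deposited unnormalized expected counts per gene, of which 14% were not whole and were rounded here, and TPM values, which are relative to gene length and library total. TPM served as an alternative scale. IDs were matched to GENCODE M21 for 96.4% (37607 of 39012).

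Counts were TMM-scaled over 15183 genes of all 40 libraries with edgeR 4.0.16 (limma 3.58.1, DESeq2 1.42.0, R 4.3.3; Python 3.11.15, pandas 2.3.3, numpy 2.4.6, matplotlib 3.10.9). Levels are log2(CPM + 1), and genes with a mean of at least 1 CPM in the 10 bifunctional libraries were compared between sets. A list score is the mean log2(CPM + 1) of its genes. Slopes on the 3-gene score were fitted with edgeR's quasi-likelihood test, with an adjusted p threshold of 0.05. The fits were tried on simulated counts with known slopes, drawn with 1 fixed scatter for all genes and the score taken as exact. That trial does not cover noise in the score or the dependence of calls on single libraries. Replicate numbers only name samples in accession order.

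The split, the 36 gene lists (590 entries, 583 found) and the rules were chosen with earlier results of these data known. Genes were named by rule: the 12 largest differences without overlap in each direction, the 10 most like the score, 4 per list and up to 8 per fit and direction; other list members are named after their values were seen. Alternatives were DESeq2 and its size factors, limma on TPM, other filters and scores, host tissue covariates, and leaving out libraries or groups; leaving out each of the 30 libraries outside the bifunctional group in the joint fit, and fitting the first 16, the last 14 or the trap control libraries alone, were added after seeing the data.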

Additional observations from a re-analysis of the deposited data

Results flagged for a closer look

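Each list score, and a few other values, were checked within each set for a library whose gap to its nearest neighbour was large for the range of the 5 values. Of 76 checks, 7 found one, and chance gives about 1 in 20 for independent checks. The checks were not independent, as 5 of the 7 fell on C0479, so no excess over chance is read from them. In the cytotoxic-high set C0479 stood above the others in 5 lists. Its γδ T cell score was 2.39, where the others had 0.642 to 0.97. Its fibroblast score was 5.7, against 4.17 to 4.54 in the others. Its contractile score was 5.29, against 3.1 to 3.66. Its endothelial score was 5.53, against 3.93 to 4.23. Its skin score was 7.52, against 0.58 to 0.875. C0483, also cytotoxic-high, stood below the others in TGF-β response genes, at 5.06 against 5.58 to 5.71. In the cytotoxic-low set C0484 stood above the others in dendritic cell genes, at 3.21 against 2.63 to 2.71.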

How the results depend on the processing

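The 5 cytotoxic-high libraries were the same under every scoring alternative except TPM and the mean of the whole cytotoxic list, each of which kept 4 and put C0481 in place of C0480. Of the list differences between sets under the alternatives, 602 stayed within 1 SD and 10 did not; the interferon-γ list became -0.086 in TPM. Genes without overlap between sets numbered 1 above and 170 below in TPM, 8 and 62 without TMM, and 32 and 16 with DESeq2 size factors. The T cell difference was -0.006 without C0479, and the muscle difference 0.93 without C0484. Fit counts moved more. In anti-PD-L1 libraries (3 genes), 5 passed with DESeq2 size factors, 44 without a filter, 10 at a mean CPM of at least 1, 71 with DESeq2's test, 1 and 0 with limma on TPM plus 1 and plus 0.1, 0 with muscle and skin covariates, 0 with a score without Gzmb or without Nkg7, and 0 to 6 without 1 replicate. In isotype control libraries (0 genes), 3 passed without a filter, 1 at a mean CPM of at least 1, 20 with DESeq2's test, 1 and 13 in TPM, and 0 to 1 without 1 replicate. Over the 30 libraries (4 genes), 15 passed with DESeq2's test, 2183 and 65 with limma on TPM plus 1 and plus 0.1, 0 with a score without Prf1, 0 without the isotype control group, 19 without the trap control group, 0 without the anti-PD-L1 group, 0 in the first 16 libraries, 47 in the last 14, 0 in the trap control group alone, and 0 to 40 without 1 replicate, 40 being without trap control replicate 5, whose muscle score was 7.63. With the covariates Atp2a1 turned to a slope of -2.13, and in TPM G6pdx turned to 0.047 and 0.082. The cause of each of these changes was not tested. Of the named genes' slopes under the alternatives, 260 kept their call, 61 lost it, 5 gained one and 3 reversed. No paired analysis was possible because the labels give no replicate numbers, and those used here only name samples in accession order. Nkg7, at 15 to 58 reads in a bifunctional library and 0 to 26 in the others, limits the precision of the score. In the 30 libraries used for the tests Gzmb and Prf1 were low as well, which limits the score there further. Their reads ran from 2 of each in C0456 to 167 of Gzmb and 174 of Prf1 in C0465.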
